A study of Mus musculus with 2 samples.

Results

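The 7 microRNA genes described here are Mir130a, Mir130b, Mir301 and Mir301b of the Mir130/Mir301 family and Mir148a, Mir148b and Mir152 of the Mir148/Mir152 family. They were chosen by name, with no measured value in the rule, out of 2202 microRNA genes counted in each library. All 7 were found in the files through their GENCODE M21 identifiers. The study consists of 2 small RNA libraries of hippocampus tissue, labelled as a layer of it, from wild-type control female mice of the strain written B6NCrl, with MODEL-AD as their source. They are called biological replicates 1 and 2 of a single group. Both carry the same donor record and separate biosample records. Nothing in the labels says that the tissue came from separate animals, and no age is given. The spread between the libraries may therefore be technical. The labels cite a different adapter-trimming document for each library, so trimming and sample cannot be told apart.

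MicroRNAs are short RNAs cut from hairpin precursors. One strand of the hairpin is loaded into Argonaute and pairs with messenger RNAs mainly through its seed, bases 2 to 8, so that genes with the same seed share predicted targets. The Mir130/Mir301 family is known from human endothelial cells, where miR-130a represses antiangiogenic homeobox genes, and from adipocyte precursors, where it represses the fat cell regulator PPARG. The Mir148/Mir152 family is known for repression of the maintenance DNA methyltransferase DNMT1 in human cells.

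The mature strands show how the families are related. They are from RefSeq (GRCm38.p6), written 5′ to 3′ with the seed in capitals. The table used held the 3p strand of 6 of the 7 genes, all but Mir301b. The first 3 belong to the Mir130/Mir301 family and the last 3 to the Mir148/Mir152 family.
miR-130a-3p: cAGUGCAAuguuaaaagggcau
miR-130b-3p: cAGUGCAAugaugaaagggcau
miR-301a-3p: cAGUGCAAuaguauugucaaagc
miR-148a-3p: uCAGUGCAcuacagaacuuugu
miR-148b-3p: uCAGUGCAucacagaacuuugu
miR-152-3p: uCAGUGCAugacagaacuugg

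Within each family the seed was the same in every strand shown. Between families the seeds differed by a shift of 1 base, and AGUGCA, 6 letters long, was common to both. miR-130a-3p and miR-130b-3p were identical at 20 of 22 bases, and so were miR-148a-3p and miR-148b-3p. miR-152-3p matched miR-148b-3p at 19 and miR-148a-3p at 18 of its 21 bases. miR-301a-3p, by contrast, matched miR-130a-3p at 12 and miR-130b-3p at 11 bases, so the likeness of the Mir301 strand to the Mir130 strands lay mostly at its 5′ end. The longest run common to it and either of them had 9 letters.

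**Figure D1:**
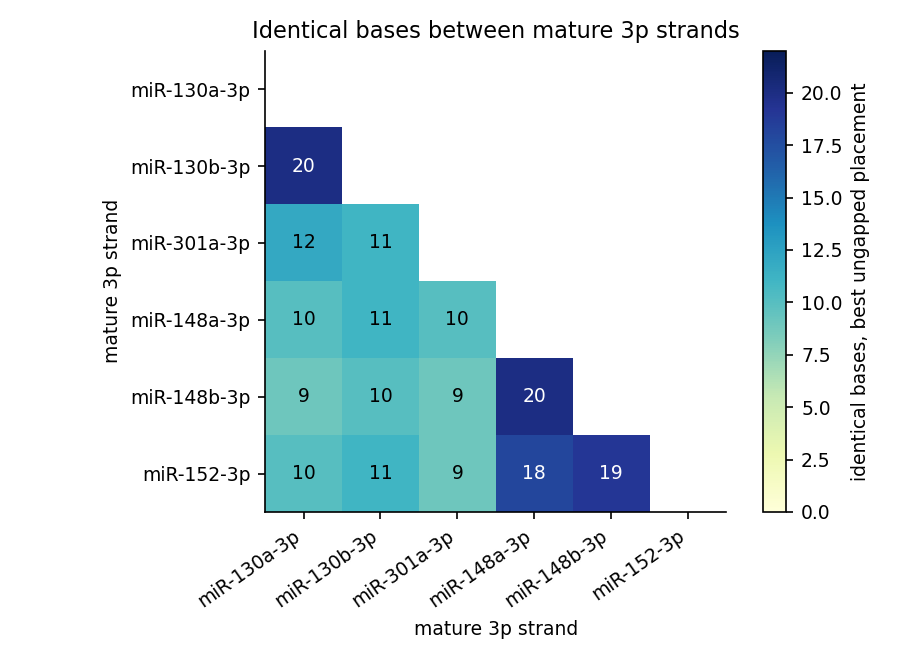
Number of identical bases between each pair of mature 3p strands in the best ungapped placement, with a strand name on each axis and the colour giving the number. The pairs within the Mir148/Mir152 family had 18 to 20 identical bases and the pair miR-130a-3p and miR-130b-3p had 20, whereas pairs between families had 9 to 11.

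The hairpins of Mir130b and Mir301 are shown because these genes share a seed and moved in opposite directions between the libraries. Capitals mark the 5p and the 3p mature strand.
Mir130b: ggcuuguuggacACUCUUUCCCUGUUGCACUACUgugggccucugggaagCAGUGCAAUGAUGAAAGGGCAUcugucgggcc
Mir301: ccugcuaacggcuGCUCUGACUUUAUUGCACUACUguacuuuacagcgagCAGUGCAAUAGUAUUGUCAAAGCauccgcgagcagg

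In both hairpins the 5p strand held UUGCACU, the reverse complement of the seed on the other arm. These letters were also in miR-301b-5p but not in miR-130a-5p. The deposited counts are sums per hairpin gene, so 5p and 3p strands cannot be separated in any value below.

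None of the 7 hairpins shared 18 or more bases with another counted hairpin, whereas 1135 of the 2202 genes (51.5%) did. The longest shared stretch was 17 bases, between Mir130a and Mir6389, and the stretches of the other members were 13 to 16 bases. Reads that map to several places stand in a class of their own outside the genes. A read of full mature length from a member was thus not identical to any other annotated hairpin, although copies outside microRNA genes were not searched.

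The 7 genes lie at 6 loci (mm10). Mir130a is on chromosome 2 (84741115 to 84741178, minus strand), outside annotated genes and 990 bases from Gm19426. Mir130b (17124061 to 17124142) and Mir301b (17124400 to 17124496) are on chromosome 16, minus strand, 257 bases apart in an intron of 2610318N02Rik. Mir301, the gene of miR-301a, is on chromosome 11 (87113004 to 87113089, plus strand) in an intron of Ska2, which encodes a spindle and kinetochore protein. Mir148a is on chromosome 6 (51269812 to 51269910, minus strand), 13621 bases from the noncoding gene Gm32479. Mir148b on chromosome 15 (103285125 to 103285221) and Mir152 on chromosome 11 (96850393 to 96850465), both on the plus strand, lie in introns of Copz1 and Copz2, genes for paralogous subunits of the coatomer that coats transport vesicles. Mir152 starts 523 bases into Copz2 and Mir148b 12411 bases into Copz1. Messenger RNA was not measured, so host gene levels are not known here.

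Sense counts over all microRNA genes came to 5901107 among 14300757 reads in replicate 2 and to 6713867 among 15794475 reads in replicate 1. Levels are CPM, a gene's sense counts per 1000000 sense counts of all microRNA genes, and intervals are exact 95% binomial intervals that cover counting error only. Neuronal marker microRNAs were detected for 12 of 13 genes and summed to 34253 CPM in replicate 2 and 34236 CPM in replicate 1, with Mir124a-2 at 0 counts. Mir124a-1 and Mir9-2 were barely counted, each with 5 counts in replicate 2 and 8 in replicate 1, and Mir124a-3 had 1 and 7. Reads that map to several places are not in these counts, so a marker gene with copies elsewhere can be counted low. The near-equal sums hide members that moved in opposite directions by the exact test described further on. Of the 9 neuronal genes tested 5 were called higher in replicate 2, such as Mir128-1 with 8772 CPM in replicate 2, against 3723 CPM in replicate 1, and 4 lower, such as Mir138-1 with 2024 CPM in replicate 2 and 3716 CPM in replicate 1. Over all 466 tested genes 18% were called higher and 35.6% lower, the shares that these counts of called genes are read against. Members of other marker lists also differed among themselves. The oligodendrocyte list summed to 3193 CPM in replicate 2, against 7078 CPM in replicate 1, with 2 of 3 genes called lower, and most of the gap came from Mir219a-2, at 1671 CPM in replicate 2 and 5126 CPM in replicate 1. Endothelial Mir126a, called lower, stood at 2897 CPM in replicate 2 and 6191 CPM in replicate 1. The mural list summed to 1504 CPM in replicate 2, against 2479 CPM in replicate 1, with Mir143 called lower and Mir145a not past the test. The epithelial list summed to 633 CPM in replicate 2, against 331 CPM in replicate 1, with 4 of 5 genes called higher and Mir200c lower. Their part in the differences described below was not tested. In bulk tissue fewer cells of a type and less RNA per cell cannot be told apart.

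The Mir130/Mir301 family was the more abundant, and nearly all of it was Mir130a. The 4 genes together had 1083 CPM in replicate 2 (exact 95% interval 1056 to 1110) and 1624 CPM in replicate 1 (1593 to 1654), a mean of 1353 ± 382 CPM (SD, n = 2), or 0.135% of the counts. The 3 genes of the Mir148/Mir152 family had 111 CPM in replicate 2 (103 to 120) and 81.9 CPM in replicate 1 (75.2 to 89.1), a mean of 96.5 ± 20.6 CPM (SD, n = 2). The Mir130/Mir301 sum was thus 9.76 times the Mir148/Mir152 sum in replicate 2 (exact 95% interval 9.00 to 10.6) and 19.8 times in replicate 1 (18.2 to 21.6). Without Mir130a, and with Mir148b kept in the other family, the sums were alike in replicate 2 but not in replicate 1. Mir130b, Mir301 and Mir301b together had 111 CPM in replicate 2 and 134 CPM in replicate 1, which was 0.998 times the Mir148/Mir152 sum in replicate 2 (0.895 to 1.11) and 1.64 times in replicate 1 (1.47 to 1.83).

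**Figure D2:**
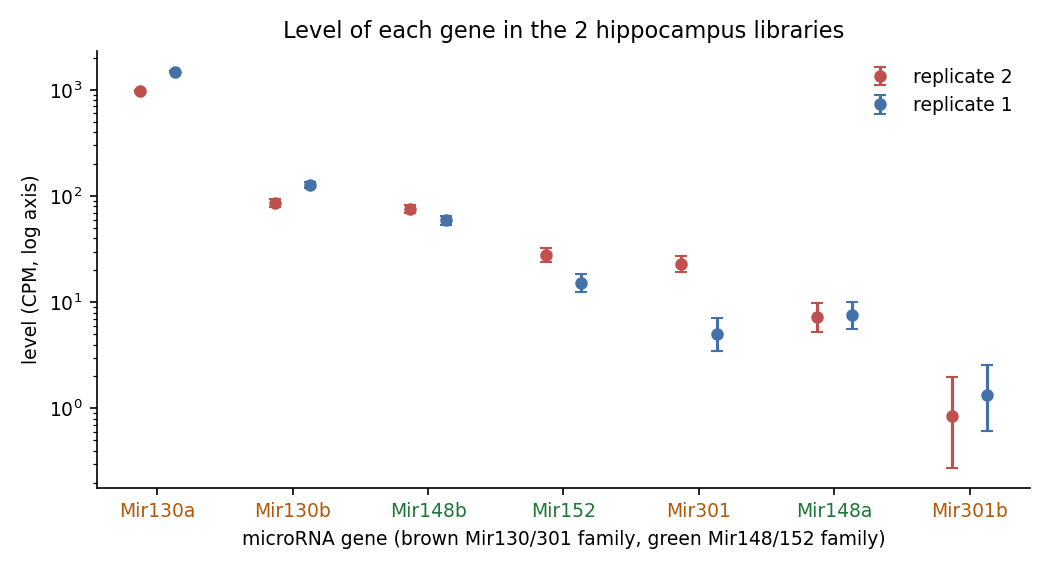
Level of each gene in CPM (log axis) with replicate 2 left and replicate 1 right, and bars giving exact 95% binomial intervals for counting error. Mir130a stood at 972 and 1489 CPM, the other 6 genes at 0.847 to 128 CPM, and Mir301 showed the widest gap between the libraries.

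Mir130a had 5736 sense counts, or 972 CPM, in replicate 2 and 9998 counts, or 1489 CPM, in replicate 1. It was lower in replicate 2, and its mean of 1231 ± 366 CPM (SD, n = 2) was the 79th highest of all genes. It held 89.8% of the family's counts in replicate 2 (exact 95% interval 89.0 to 90.5) and 91.7% in replicate 1 (91.2 to 92.2).

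Mir130b, whose mature 3p strand differs from that of Mir130a at few bases, was far less abundant. It had 513 counts, or 86.9 CPM, in replicate 2 and 859 counts, or 128 CPM, in replicate 1, a mean of 107 ± 29.0 CPM (SD, n = 2). Like Mir130a it was lower in replicate 2. Mir130a exceeded it 11.2 times in replicate 2 (exact 95% interval 10.2 to 12.3) and 11.6 times in replicate 1 (10.9 to 12.5), so that the ratio between them differed by less than its counting error.

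Mir301b, the neighbour of Mir130b in the same intron, was barely counted. It had 5 counts in replicate 2, a level of 0.847 CPM (0.275 to 1.98), and 9 counts in replicate 1, a level of 1.34 CPM (0.613 to 2.54). These intervals overlap. Mir130b exceeded it 103-fold in replicate 2 (43.7 to 317) and 95.4-fold in replicate 1 (50.04 to 209). Among 81 pairs of neighbouring genes on the same strand with at most 1000 bases between them and counts in these libraries, the upper exceeded the lower by a median of 11.7-fold in mean CPM. The 98.2-fold gap between Mir130b and Mir301b was exceeded in 13 of the other pairs. Pairs were kept where both genes had a count and the upper a mean of at least 10.

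Mir301 did not follow the other Mir130/Mir301 genes. miR-301a is known from human pancreatic cancer cells, where it raises NF-kappaB activity by repressing the inhibitor NKRF. The gene had 136 counts, or 23.0 CPM (19.3 to 27.3), in replicate 2 and 34 counts, or 5.06 CPM (3.51 to 7.08), in replicate 1. It was higher in replicate 2 and its mean was 14.1 ± 12.7 CPM (SD, n = 2). Mir130b exceeded Mir301 3.77 times in replicate 2 (3.12 to 4.59) and 25.3 times in replicate 1 (17.9 to 36.7), intervals that lie far apart and do not depend on how the libraries are scaled. Mir301b stood at 0.0368 times Mir301 in replicate 2 (0.0117 to 0.0879) and at 0.265 times in replicate 1 (0.112 to 0.564). Across families Mir152 exceeded Mir301 1.21 times in replicate 2 (0.955 to 1.52) and 3.03 times in replicate 1 (2.04 to 4.61), so the gap to Mir301 differed for each of these partners.

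In the Mir148/Mir152 family Mir148b led in both libraries. It had 448 counts, or 75.9 CPM, in replicate 2 and 396 counts, or 59.0 CPM, in replicate 1, with a mean of 67.5 ± 12.0 CPM (SD, n = 2). Its share of the family was 68.4% in replicate 2 (exact 95% interval 64.7 to 71.9) and 72.0% in replicate 1 (68.0 to 75.7), so most of the family's counts came from the gene in Copz1.

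Mir152, the gene in Copz2, came next. It had 164 counts, or 27.8 CPM, in replicate 2 and 103 counts, or 15.3 CPM, in replicate 1, a mean of 21.6 ± 8.80 CPM (SD, n = 2). It was higher in replicate 2. Mir148b exceeded it 2.73 times in replicate 2 (2.28 to 3.29) and 3.84 times in replicate 1 (3.09 to 4.82), intervals that overlap.

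Mir148a, known in mouse for a part in B cell tolerance and in human liver cells for repression of the LDL receptor, was the lowest of its family. It had 43 counts, or 7.29 CPM (5.27 to 9.82), in replicate 2 and 51 counts, or 7.60 CPM (5.66 to 9.99), in replicate 1. The libraries gave the same level within counting error. Mir148b exceeded it 10.4 times in replicate 2 (7.61 to 14.6) and 7.76 times in replicate 1 (5.79 to 10.6).

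**Figure D3:**
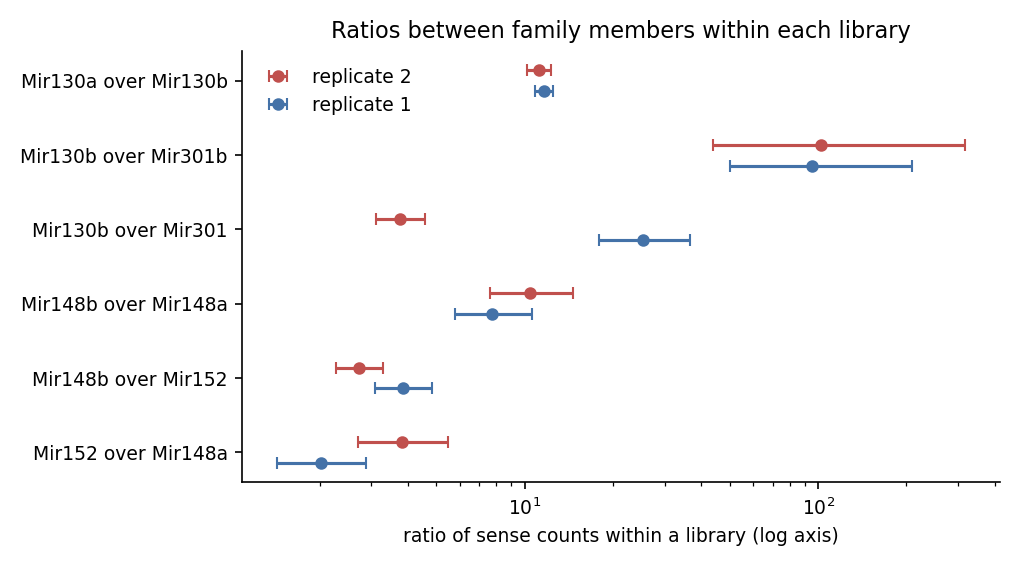
Ratios of sense counts between family members within each library (log axis), with replicate 2 above replicate 1 and bars giving exact 95% intervals for counting error. Mir130b over Mir301 was 3.77 in replicate 2 and 25.3 in replicate 1, and the intervals of the libraries overlap for the other 5 ratios shown. Mir301b over Mir301, not drawn, was 0.0368 in replicate 2 and 0.265 in replicate 1, with intervals that do not overlap.

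By mean level the order was Mir130a, Mir130b, Mir148b, Mir152, Mir301, Mir148a and Mir301b. The order held in replicate 2 alone. In replicate 1 alone Mir148a exceeded Mir301, and the other 5 genes kept their places. The ranges over the libraries overlapped for Mir152 and Mir301 and for Mir301 and Mir148a, so those neighbours are not separated beyond their spread. They did not overlap for the other neighbours, although Mir130b exceeded Mir148b by 0.19 on the log2(CPM + 1) scale in replicate 2, against 1.10 in replicate 1. Among all genes the members spread widely, with places by level between 86 and 517 in replicate 2 and between 75 and 487 in replicate 1.

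**Figure D4:**
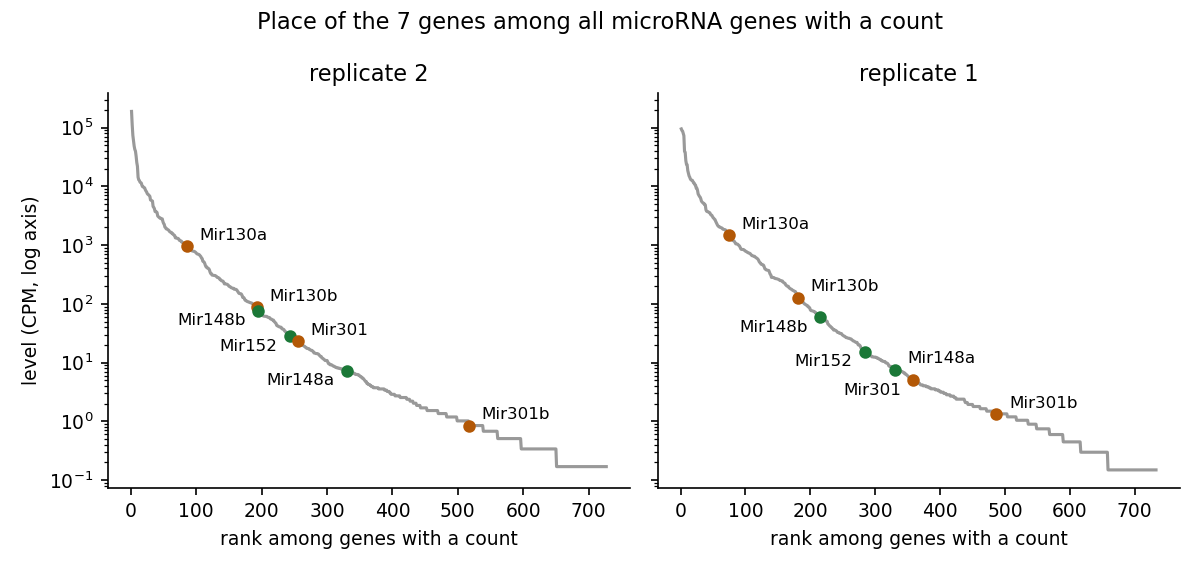
Level in CPM (log axis) against rank for every microRNA gene with a count (grey line), for replicate 2 at left and replicate 1 at right, with the 7 genes as points. Mir130a was at place 86 in replicate 2 and 75 in replicate 1, Mir148a at place 330 in both, and Mir301 at place 256 in replicate 2 and 359 in replicate 1.

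Other genes with the seed AGUGCAA were not counted. It was held by 7 of the 1738 mature microRNAs in the table from RefSeq, and 4 of these came from genes outside the 7 described here.
miR-130c: cAGUGCAAuguuccaaggugug
miR-721: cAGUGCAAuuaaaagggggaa
miR-6341: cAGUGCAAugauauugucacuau
miR-6389: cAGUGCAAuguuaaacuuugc
Mir130c, Mir721, Mir6341 and Mir6389 each had 0 sense counts in both libraries, which allows up to 0.508 CPM in replicate 2 and 0.447 CPM in replicate 1. The seed CAGUGCA was held by 3 mature microRNAs, all of Mir148a, Mir148b or Mir152. The counted part of either seed group was therefore the members themselves.

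Both libraries belong to 1 group, so the only comparison across all genes is between them. Sense counts of a gene were set against those of every other gene by a 2-sided Fisher exact test, and p-values were adjusted by the Benjamini-Hochberg method across 466 genes whose mean reached 10 counts. A gene was called at an adjusted p under 0.05 if its log2 ratio of replicate 2 over replicate 1 had one sign under 3 scalings: TMM factors from edgeR (a trimmed mean of log ratios), library totals and size factors from DESeq2. Totals put the median log2 ratio of all 466 genes at -0.18, TMM at -0.02 and DESeq2 at -0.03. The test covers counting error only and says nothing of conditions or animals. It compares shares of the library totals, so its p goes with the ratio under totals and not with the TMM ratio.

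Of the 6 members tested, 3 were called higher in replicate 2, against 18% of all tested genes, and 2 lower, against 35.6%. In either direction 5 were called, against 53.6% of all tested genes. Among the 328 genes with a mean of at least 50 counts the share called was larger: 233, with 78 higher and 155 lower. The 5 called members are all among these 328 genes. Mir301b, with a mean under 10 counts, was not tested. The median log2 ratio of the 6 was 0.31 under TMM. The SD of the log2 ratios of all tested genes was 0.82 and their median size 0.36, which is the spread between these libraries that the members are read against.

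Mir301 had the widest difference, a log2 ratio of 2.33 under TMM (counting SE 0.27, Fisher exact adjusted p = 2.77e-18). Only 8 of the 466 tested genes had a wider one in either direction. Mir152 had a ratio of 1.02 (SE 0.18, exact adjusted p = 5.07e-06) and held place 62 by size. Among the members, these alone passed beyond the SD of all genes under TMM. Under totals, with which the exact test goes, the ratio was 2.17 for Mir301 and 0.85 for Mir152.

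The other called members differed by less than the SD of 0.82 and by more than the median size of 0.36. Mir148b had a log2 ratio of 0.53 (SE 0.10, exact adjusted p = 5.48e-04), Mir130a of -0.45 (SE 0.02, exact adjusted p = 4.98e-150) and Mir130b of -0.40 (SE 0.08, exact adjusted p = 8.15e-12). Those ratios are under TMM. Under totals, with which the exact test goes, they were 0.36 for Mir148b, -0.62 for Mir130a and -0.56 for Mir130b. The test of Mir130a rested on 15734 counts, by far the most of the 7 genes. Mir148a, at 0.10 (SE 0.30, exact adjusted p = 0.932), did not pass, and its sign turned under totals. By family, Mir130a and Mir130b were lower and Mir301 higher, while Mir148b and Mir152 were both higher, with medians of -0.40 over 3 tested Mir130/Mir301 genes and 0.53 over 3 Mir148/Mir152 genes.

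**Figure D5:**
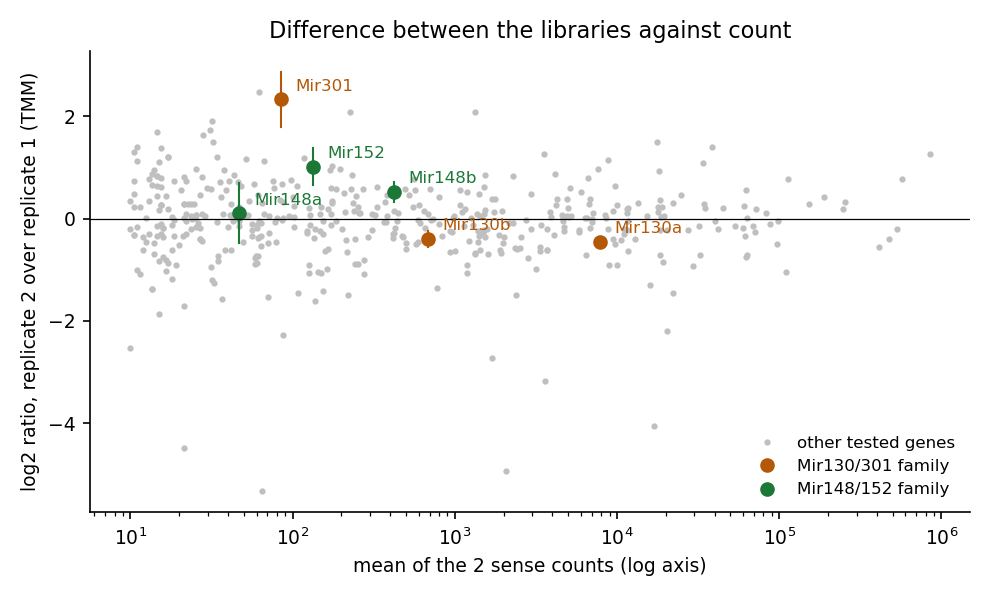
Log2 ratio of replicate 2 over replicate 1 under TMM against the mean of the 2 sense counts (log axis) for 466 tested genes, with members coloured by family and vertical lines giving 95% counting intervals. Mir301 at 2.33 lies near the upper edge of the cloud, and Mir130a at -0.45 and Mir130b at -0.40 lie within it.

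The genes nearest to each member in level over both libraries were found by Euclidean distance in log2(CPM + 1), which with 2 libraries describes a level and a difference and nothing more. Mir301 was nearest to Mir26a-1, with 102 counts in replicate 2 and 23 in replicate 1, at a distance of 0.60, followed by Mir3083. For Mir130a they were Mir140 and Mir181d, at 0.32 each, and for Mir130b Mir491 at 0.17 and Mir30b at 0.28. For Mir148a they were Mir6971 and Mir494, at 0.03 and 0.04. Mir148b was nearest to Mir493 (0.21) and Snord43 (0.27), the second listed as a microRNA gene in GENCODE M21, and Mir152 to Mir200a (0.30) and Mir181a-2 (0.47). No member was among the 2 genes nearest to another member. Reads that map to several places are outside these counts, and stretches that the nearest genes share with other hairpins are not given here. The count of a nearest gene, such as Mir26a-1 or Mir181a-2, may thus fall short of the level of its microRNA.

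Strand had little bearing on the counts of these genes. On the opposite strand Mir130a had 2 counts in replicate 2 and 0 in replicate 1, and the other 6 genes had 0 counts in both libraries. Counts without strand equalled the sense counts for those 6 genes. Their total over all microRNA genes is smaller, so levels rise when they are used. The mean was then 1446 CPM for Mir130/Mir301, against 1353 CPM, and 103 CPM for Mir148/Mir152, against 96.5 CPM.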

How the data were processed

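The authors deposited raw read counts per microRNA gene for 2 small RNA libraries, on mm10 and GENCODE M21 per the README of each library. Which aligner and counter were used is not given in the sources used here. The files hold 3 count columns with no heading. Their totals identify them as counts without strand, sense and antisense, and the sense column (column 3 of the file) was used. The 4 read classes outside genes stayed out of library sizes: 45.9% of reads in replicate 2 and 43.9% in replicate 1 mapped to several places, 9.63% in replicate 2 and 10.8% in replicate 1 did not map, and 3.17% in replicate 2 and 2.78% in replicate 1 lay outside microRNA genes. The size range of the libraries was below 30, per the labels, which give no unit.

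CPM, ratios (0.5 counts added), exact intervals and tests were computed in Python 3.11.15 with SciPy 1.17.1. Scaling factors came from edgeR 4.0.16 and DESeq2 1.42.0. The exact test and a ratio under totals were tried on simulated counts with counting error only. Of 99 genes changed 1.5-fold 65.7% were recovered, and of 98 changed 2-fold 82.7%. TMM, DESeq2 and the rule of one sign had no part in that trial. A count of 0 was given a limit of 3 counts per library. Shared stretches were searched on both strands of GENCODE hairpins. Named genes were the 7 members, genes with a member's seed, and the 2 genes nearest to each tested member. Members, lists and tests were chosen with earlier results of these data known. The close-pair comparison, and the choice of hairpins printed, followed after seeing the data.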

Additional observations from a re-analysis of the deposited data

How the results depend on the processing

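The count of called members (5, with 3 higher and 2 lower in replicate 2) was the same with no minimum count, with a minimum mean of 50, with counts without strand, and without genes that share 18 or more bases. Mir148a, with a mean under 50, was not tested under that minimum. Scaling and the counts added before a ratio do not enter the exact test. They can change the size and sign of a ratio, and so a call under the rule of one sign, but never the p. Under TMM, totals or DESeq2 size factors alone and with 2 counts added, the sign turned only for Mir148a, which was not called, at -0.06 under totals. With no minimum, Mir301b was tested and did not pass (exact adjusted p = 0.704). Over all genes, 268 of 466 passed the threshold before the rule of one sign. When every gene with a shared stretch of 18 bases or longer was left out, 49 of 371 tested genes were called higher. This was a smaller share than the 84 of 466 in all. Called lower were 137 of the 371, against 166 of 466. The tested members are all among the 371 genes, which are thus the closer background for them by shared bases. By depth, the closer background for the 5 called members is the 328 genes with a mean of at least 50. Of those, 233 were called, 78 higher and 155 lower. With all reads of a library as the denominator, the family means were 568 CPM for Mir130/Mir301 and 40.3 CPM for Mir148/Mir152, since reads outside microRNA genes then enter the total. TMM alone, and TMM library sizes for family levels, were chosen after seeing the data. Leaving out a library leaves 1 and no comparison. Depth limits Mir301b, Mir148a and, in replicate 1, Mir301 (34 counts).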

Other observations

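Lists set beside these families gave the following values. The Mir29 genes, known in human cells for repression of the de novo DNA methyltransferases, summed to 8686 CPM in replicate 2 and 11149 CPM in replicate 1. Of the 4 tested 3 were called lower, against 35.6% of all tested genes, and 0 higher, against 18%, with a median log2 ratio of -0.26. In the Mir148/Mir152 family Mir148b and Mir152 were called higher and Mir148a did not pass. The difference between these lists was not tested. The 15 genes of the cluster of Mir17 and its paralogs, known for a part in cell growth, summed to 2407 CPM in replicate 2 and 2639 CPM in replicate 1. Of 11 tested 1 was called higher, against 18% of all tested genes, and 3 lower, against 35.6%, with a median log2 ratio of 0.06.

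Vessel genes Mir126a, Mir143 and Mir145a, with Mir126b at 0, summed to 4402 CPM in replicate 2, against 8671 CPM in replicate 1. Of the 3 tested 2 were called lower, against 35.6% of all tested genes. The calls in the lists that follow are read against the same share of 35.6% lower and against 18% higher. The astrocyte list came to 69694 CPM in replicate 2, against 62925 CPM in replicate 1, with 2 of 5 tested genes called higher and 2 lower. The leukocyte list came to 2246 CPM in replicate 2, against 2028 CPM in replicate 1, a sum led by Mir150 with 1815 CPM in replicate 2 and 1303 CPM in replicate 1. Of its 6 tested genes 4 were called lower and 2 higher, with a median log2 ratio of -0.50. Choroid plexus and ependyma genes came to 1747 CPM in replicate 2, against 2056 CPM in replicate 1, with Mir449b and Mir449c at 0. Mir204, called higher, led that sum with 1653 CPM in replicate 2 and 1532 CPM in replicate 1, whereas 3 of the 5 tested genes were called lower, among them Mir34c with 61.2 CPM in replicate 2, against 451 CPM in replicate 1, and the median log2 ratio was -0.99. Pancreas and liver genes came to 339 CPM in replicate 2, against 570 CPM in replicate 1, and all 3 tested were called lower. Erythrocyte genes came to 32.7 CPM in replicate 2, against 73.1 CPM in replicate 1, and both tested were called lower. Muscle genes, counted only through Mir206, came to 19.3 CPM in replicate 2, against 32.6 CPM in replicate 1, and Mir206 was called lower. Mir1a-1, Mir1a-2, Mir133a-1 and Mir133a-2 stood at 0, and reads that map to several places are not in these counts.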
